A study of Homo sapiens with 16 samples.

Results

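The 40 genes described here encode nucleolar proteins and factors that build ribosomes. They were listed by gene symbol, with earlier results of these data known, and all 40 of them, among 42351 genes of the count table, were found and passed the filter on low counts that left 15067 genes for testing. They were followed in lung cancer cells treated with hepatocyte growth factor (HGF), the ligand of the receptor tyrosine kinase MET. Polyadenylated RNA was sequenced after 0, 3, 6 and 12 h of HGF, with 2 replicates at each time, in cells expressing either wt MET or MET∆14, the form of the receptor that lacks the juxtamembrane segment encoded by exon 14. The wt MET samples are labelled A549, a lung adenocarcinoma line, and the MET∆14 samples NCI-H596, a lung adenosquamous carcinoma line that carries the exon 14 skipping allele as its own mutation. The labels give 12 h of serum deprivation before HGF in every sample, the 0 h samples included, whereas the study's methods give a longer time for HGF treatments. Each form of MET is therefore represented by 1 cell line, and line and MET status cannot be told apart. The untreated samples stand at 0 h alone, so time in culture without serum and HGF cannot be told apart either. The study calls the replicates biological. The labels do not say that they are separate cultures, and p-values measure the spread between these libraries.

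Total counts per library lay between 10158590 and 23909304. The keratins KRT8 and KRT18 were high in both lines, whereas EPCAM, CDH1 and KRT19, also epithelial markers, were much lower in wt MET cells, with EPCAM at 0.868 to 2.97 CPM against 24.4 to 37.4 CPM in MET∆14 cells. Of 12 leukocyte, endothelial and fibroblast markers, 9 in wt MET and 7 in MET∆14 cells had at most 3 counts in every library. CDKN2A, deleted in A549, had 0 counts in all wt MET libraries and MTAP 5 to 23 counts. The study's text names EKVX as its wt MET line and does not name A549, so the labels and the text differ on this line, and the name A549 rests on the labels alone. Replicate 2 of MET∆14 at 12 h had the lowest total and correlated better with replicate 2 of MET∆14 at 6 h (0.987 on log2 CPM) than with its own replicate (0.982). For replicate 1 of MET∆14 at 12 h this 0.982 was the best correlation with any library, lower than the best value of every other library. Results that change without replicate 1 or replicate 2 of MET∆14 at 12 h are given below.

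Ribosomes are built in the nucleolus, where RNA polymerase I transcribes the precursor of the large ribosomal RNAs. Small nucleolar ribonucleoproteins (snoRNPs) then modify the precursor, and many assembly factors fold and cut it into the small and the large subunit. The pathway is among the largest consumers of energy in a growing cell and is known to follow growth factor signalling and the transcription factor MYC, which binds the E-box CACGTG.

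Promoters were read to place the genes beside that motif. RefSeq (GRCh38.p14) gave a promoter of 250 bases before to 50 bases after the start for 33 of the 40 genes. The promoters of NOLC1, URB2, NOP58, BOP1, DDX18, RRP12 and RRP1B were not analysed here. The letters CACGTG, which read the same on both strands, were present in 14 of the 33 promoters (42.4%). The same letters were in 8.77% of all 27305 promoters in the table and 12.4% of those of the 11036 tested genes that matched. All 14 held the motif within 50 bases of the start, as did 5.12% of the tested genes. A match is a run of letters and not a measured binding site. Sequences are printed for the 4 genes with a match whose response to HGF differed most between the lines, from 100 bases before to 50 bases after the start, with the E-box in capitals, for RRP9 (chr3:51941855-51942004, minus strand), BYSL (chr6:41921399-41921548, plus strand), DDX21 (chr10:68956547-68956696, plus strand) and MRTO4 (chr1:19251705-19251854, plus strand).
RRP9: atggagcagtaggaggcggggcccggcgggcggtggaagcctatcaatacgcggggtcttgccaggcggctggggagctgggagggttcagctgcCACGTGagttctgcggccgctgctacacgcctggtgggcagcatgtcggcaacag
BYSL: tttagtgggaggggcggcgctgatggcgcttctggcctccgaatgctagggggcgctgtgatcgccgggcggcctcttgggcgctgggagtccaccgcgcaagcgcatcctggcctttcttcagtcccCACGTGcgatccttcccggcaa
DDX21: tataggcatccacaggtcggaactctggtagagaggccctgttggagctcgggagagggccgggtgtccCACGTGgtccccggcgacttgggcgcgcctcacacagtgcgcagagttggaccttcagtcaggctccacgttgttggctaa
MRTO4: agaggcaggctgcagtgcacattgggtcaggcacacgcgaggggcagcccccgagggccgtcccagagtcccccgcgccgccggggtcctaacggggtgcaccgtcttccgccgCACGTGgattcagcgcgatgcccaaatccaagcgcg
Counting the start as position 1, the E-box began at position 29 in BYSL and 15 in MRTO4, and 5 and 31 bases before the start in RRP9 and DDX21. The genes with and without the motif had similar differences of the mean response between the lines, with medians of 0.76 and 0.71 on the log2 scale.

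As a group, the 40 genes were a steady share of the transcriptome in wt MET cells and a changing one in MET∆14 cells. With wt MET they took 0.824% and 0.883% of all counts at 0 h, 0.828% and 0.861% at 3 h, 0.820% and 0.799% at 6 h, and 0.884% and 0.887% at 12 h. With MET∆14 they took 0.338% and 0.351% at 0 h, 0.558% and 0.555% at 3 h, 0.655% and 0.646% at 6 h, and 0.525% and 0.548% at 12 h. All 6 MET∆14 libraries with HGF lay above both at 0 h, and all 8 lay below every wt MET library. These are shares of RNA, and in bulk samples fewer cells of a type and less RNA per cell cannot be told apart.

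**Figure D1:**
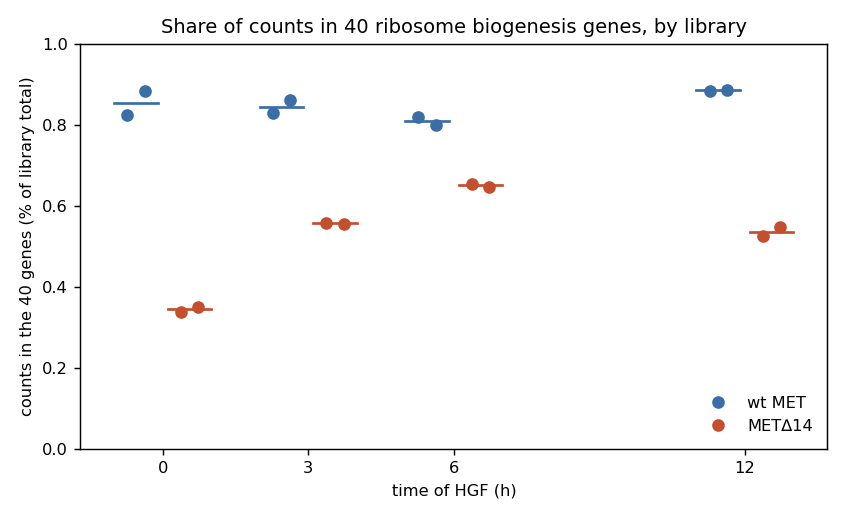
Counts in the 40 genes as a percentage of the library total (y axis) by time of HGF in hours (x axis). Each point is 1 library and each bar the mean of the 2 libraries; MET∆14 rises from a mean of 0.344% at 0 h to 0.651% at 6 h, and wt MET stays between 0.799% and 0.887%.

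In MET∆14 cells nearly every gene of the group rose after HGF. Against 0 h, 36 of 40 were called higher at 3 h, where 15.5% of all genes tested were called higher. Calls are those of the quasi-likelihood test in edgeR, with p adjusted over all genes tested by Benjamini-Hochberg (threshold 0.05). At 6 h 38 of 40 were higher (21.6% of all genes) and at 12 h 37 of 40 (18.3%). None was called lower at any time, where 16.1%, 22.5% and 20.1% of all genes were. NHP2 and NPM3 were the genes called at none of these times, and a fall at an unadjusted p under 0.05 was found in 0 of the 40 at each time, as was a fall called by DESeq2. The median log2 fold change of the group was 0.82 at 3 h, 1.01 at 6 h and 0.65 at 12 h, and single values ran from 0.07 to 1.73, from 0.28 to 1.96 and from -0.04 to 1.17. The median of all genes was between -0.05 and -0.02 at these times. At 3 h both MET∆14 libraries lay above both at 0 h for 39 genes, at 6 h for 40 and at 12 h for 37. Separation of this kind was not counted over all genes, so these counts have no share to stand beside. Over the mean of the 3 times, 38 genes were called higher (21.3% of all genes) and none lower (25.3%). The F test over the 3 times called 38 (54.1%).

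**Figure D2:**
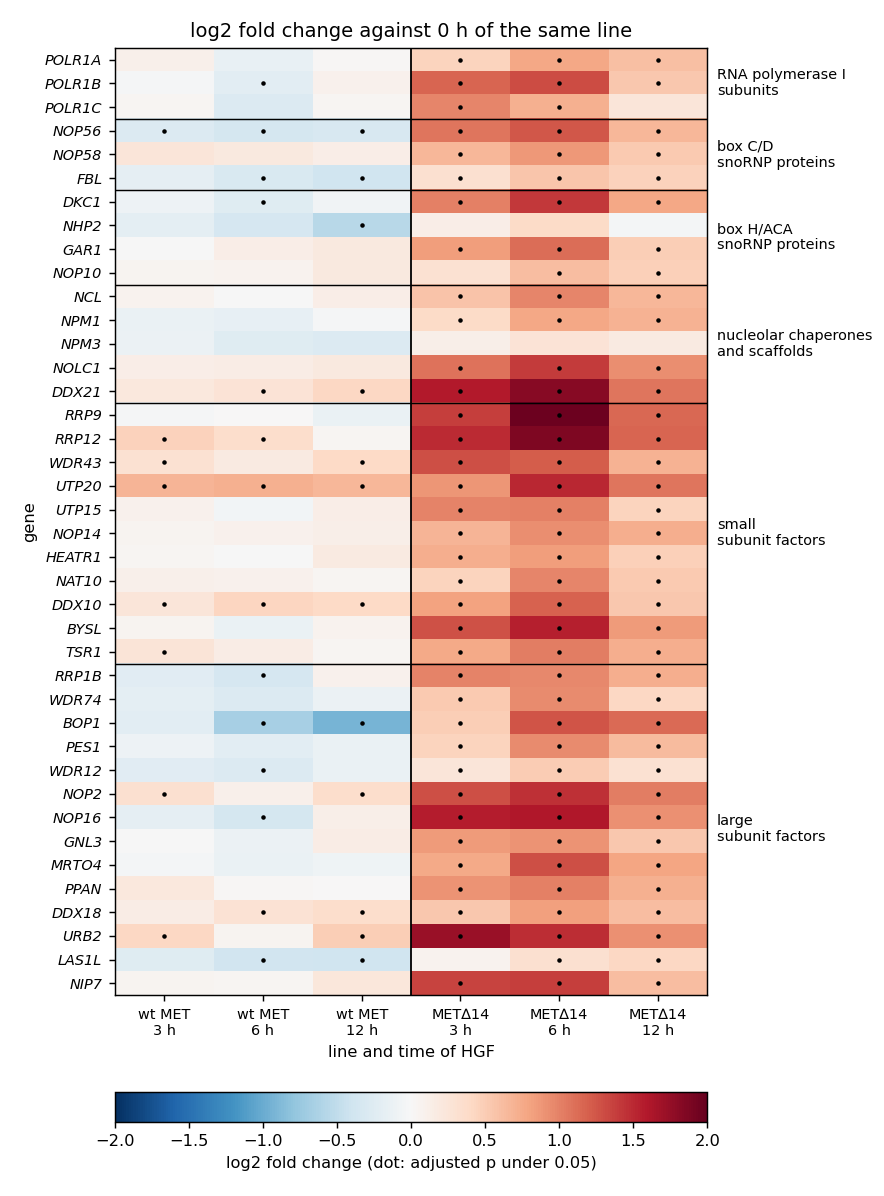
Log2 fold change against 0 h of the same line (colour) for the 40 genes (rows, by role) at 3, 6 and 12 h of HGF in each line (columns), with a dot where the adjusted p was under 0.05. The wt MET columns hold 8, 14 and 12 dots of mixed colour, and the MET∆14 columns 36, 38 and 37, all for higher values.

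The rise had its top at 6 h for most of the genes. Of the 40, 35 had their highest fold change at 6 h, 4 at 3 h (POLR1C, WDR43, RRP1B and URB2) and LAS1L at 12 h. The time of the highest fold change was not counted over all genes. Their calls for a rise were also most frequent at 6 h (21.6%, beside 15.5% at 3 h and 18.3% at 12 h). Between 3 and 6 h, 16 genes rose further, where 4.67% of all genes were called higher, and none fell by edgeR (5.1% of all genes), although POLR1C and URB2 had an unadjusted p under 0.05 and DESeq2 called 1. From 6 to 12 h none rose (8.3% of all genes; 0 at an unadjusted p under 0.05 by edgeR and 0 by DESeq2) and 27 fell (10.3%), with a median log2 change of -0.44. All 27 had been called higher at 6 h, and 26 of them were still called higher than at 0 h after 12 h. The step counts depended on single libraries. Without replicate 2 of MET∆14 at 6 h, 3 genes rose from 3 to 6 h and 16 fell from 6 to 12 h. Without either 12 h library of MET∆14, 24 genes rose from 3 to 6 h. Without replicate 2 at 12 h, 33 genes fell from 6 to 12 h.

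RNA polymerase I subunits come first in the pathway. POLR1B, the second largest subunit of the enzyme, was at 30.7 and 33.1 CPM in MET∆14 cells at 0 h, 73.4 and 70.5 CPM at 3 h, 78.1 and 79.3 CPM at 6 h, and 46.5 and 46.0 CPM at 12 h. Every library with HGF lay above those at 0 h. The log2 fold change at 6 h was 1.30 ± 0.07 (SE; adjusted p = 6.97e-09), and from 6 to 12 h the level fell by 0.77 on the log2 scale (adjusted p = 1.63e-05). With wt MET, POLR1B was at 114 and 117 CPM at 0 h, 112 and 115 CPM at 3 h, 101 and 98.1 CPM at 6 h, and 125 and 119 CPM at 12 h. A dip was called at 6 h (log2 fold change -0.22 ± 0.07, adjusted p = 0.0281), and this call was lost without the filter on low counts and in 14 of 16 fits that left out 1 library. POLR1A, the largest subunit, rose at all 3 times with MET∆14 (0.44, 0.78 and 0.60 on the log2 scale), and its 12 h libraries stood apart at 166 and 111 CPM. POLR1C, shared with RNA polymerase III, rose by 0.98 at 3 h and 0.71 at 6 h, and its value of 0.24 at 12 h did not pass the test (adjusted p = 0.111).

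Box C/D snoRNPs guide methylation of ribosomal RNA. FBL, the methyltransferase, was at 89.8 and 93.2 CPM in MET∆14 cells at 0 h, 111 and 117 CPM at 3 h, 129.7 and 139 CPM at 6 h, and 109 and 145 CPM at 12 h. With wt MET the same gene went the other way, from 215 and 229.8 CPM at 0 h to 199 and 192 CPM at 3 h, 184 and 174 CPM at 6 h, and 171 and 165 CPM at 12 h. The libraries did not overlap between 0 h and any later time in either line. The mean log2 fold change over the 3 times was 0.45 ± 0.09 with MET∆14 (adjusted p = 0.000851) and -0.30 ± 0.08 with wt MET (adjusted p = 0.0114), both called, the latter not without replicate 2 of wt MET at 0 h (-0.23, adjusted p = 0.152). NOP56, a scaffold of the same particle, was at 91.6 and 106 CPM in MET∆14 cells at 0 h, 202 and 212 CPM at 3 h, 224 and 246 CPM at 6 h, and 165 and 147 CPM at 12 h. With wt MET it started at 274 and 250.0 CPM and was at 218 and 217 CPM at 3 h, 202 and 208 CPM at 6 h, and 211 and 208 CPM at 12 h. NOP56 was the gene called lower at all 3 times with wt MET, at 3 h by a small margin (adjusted p = 0.0498), while its mean response with MET∆14 was 0.99 ± 0.08 (adjusted p = 1.35e-07). NOP58, the partner of NOP56 in the particle, rose with MET∆14 (mean 0.68 ± 0.07, adjusted p = 3.39e-06), and with wt MET its mean of 0.18 ± 0.07 did not pass the test (adjusted p = 0.0556).

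Box H/ACA snoRNPs guide pseudouridylation, and their proteins also hold telomerase RNA. DKC1, the pseudouridine synthase, was at 113 and 116 CPM in MET∆14 cells at 0 h, 232 and 230.3 CPM at 3 h, 303 and 311 CPM at 6 h, and 194 and 199 CPM at 12 h. At 6 h this was a log2 fold change of 1.42 ± 0.08 (adjusted p = 4.43e-09). With wt MET, DKC1 was at 233 and 257 CPM at 0 h, 223 and 235 CPM at 3 h, 207 CPM in both libraries at 6 h, and 240.4 and 226 CPM at 12 h. It fell at 6 h alone (-0.24 ± 0.07, adjusted p = 0.0199), a call lost without the filter on low counts and in 9 of 16 fits that left out 1 library. Its 3 partners in the particle did not move alike. GAR1 rose with MET∆14 (mean 0.81 ± 0.10, adjusted p = 1.4e-05). NOP10 was at 62.0 and 55.6 CPM in MET∆14 cells at 0 h, 73.7 and 71.5 CPM at 3 h, 92.3 and 88.2 CPM at 6 h, and 61.2 and 104 CPM at 12 h. Its wt MET values were 122 and 148 CPM at 0 h, 143 and 136 CPM at 3 h, 146 and 139 CPM at 6 h, and 157 and 152 CPM at 12 h. Its 12 h libraries with MET∆14 lay on either side of those at 6 h, and its rise passed the test at 6 h (0.62 ± 0.17, adjusted p = 0.00985) and 12 h (0.48 ± 0.17, adjusted p = 0.043). The call at 12 h was lost when replicate 2 of MET∆14 at 12 h, or any of several other libraries, was left out. NHP2 was at 64.3 and 60.8 CPM in MET∆14 cells at 0 h, 69.5 and 67.9 CPM at 3 h, 81.4 and 81.3 CPM at 6 h, and 46.9 and 76.2 CPM at 12 h. The mean response of 0.16 ± 0.12 did not pass the test (adjusted p = 0.317). Without replicate 1 of MET∆14 at 12 h that mean was 0.27 (adjusted p = 0.000901), and without the other library at 12 h it was 0.03. With wt MET, NHP2 fell from 85.1 and 97.1 CPM at 0 h through 82.7 and 77.2 CPM at 3 h and 71.6 and 72.5 CPM at 6 h to 61.9 and 61.4 CPM at 12 h (-0.56 ± 0.15 at 12 h, adjusted p = 0.0092). This call was lost without replicate 2 of wt MET at 0 h or either library at 12 h.

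The nucleolar chaperones and scaffolds include the most abundant members. Per kilobase of the canonical transcript, NPM1 had the highest level of the 40 genes in both lines at 0 h (433 CPM per kb in MET∆14 and 989 in wt MET cells), and UTP20 the lowest (3.74 and 7.84). NCL, the histone and RNA chaperone nucleolin, was at 472 and 461 CPM in MET∆14 cells at 0 h, 692 and 689 CPM at 3 h, 904 and 933 CPM at 6 h, and 759 and 718 CPM at 12 h. With wt MET it was at 965 and 1084 CPM at 0 h, 1031 and 1122 CPM at 3 h, 1021 and 1025 CPM at 6 h, and 1108 and 1145 CPM at 12 h. MET∆14 cells at 6 h thus came near the wt MET libraries without reaching them, with a log2 fold change of 0.98 ± 0.09 (adjusted p = 4.67e-07), and no change with wt MET passed the test. NPM1, or nucleophosmin, was at 571 and 572 CPM with MET∆14 at 0 h, 755 and 743 CPM at 3 h, 968 and 975 CPM at 6 h, and 825 and 1017 CPM at 12 h. The wt MET libraries had 1229.6 and 1382 CPM at 0 h, 1119 and 1259 CPM at 3 h, 1141 and 1181 CPM at 6 h, and 1231 and 1339 CPM at 12 h. Its mean response was 0.61 ± 0.09 with MET∆14 (adjusted p = 5.81e-05) and -0.11 ± 0.09 with wt MET (adjusted p = 0.348). NPM1 has 49 named pseudogenes, and how reads shared with them were counted is not given in the sources used here.

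**Figure D3:**
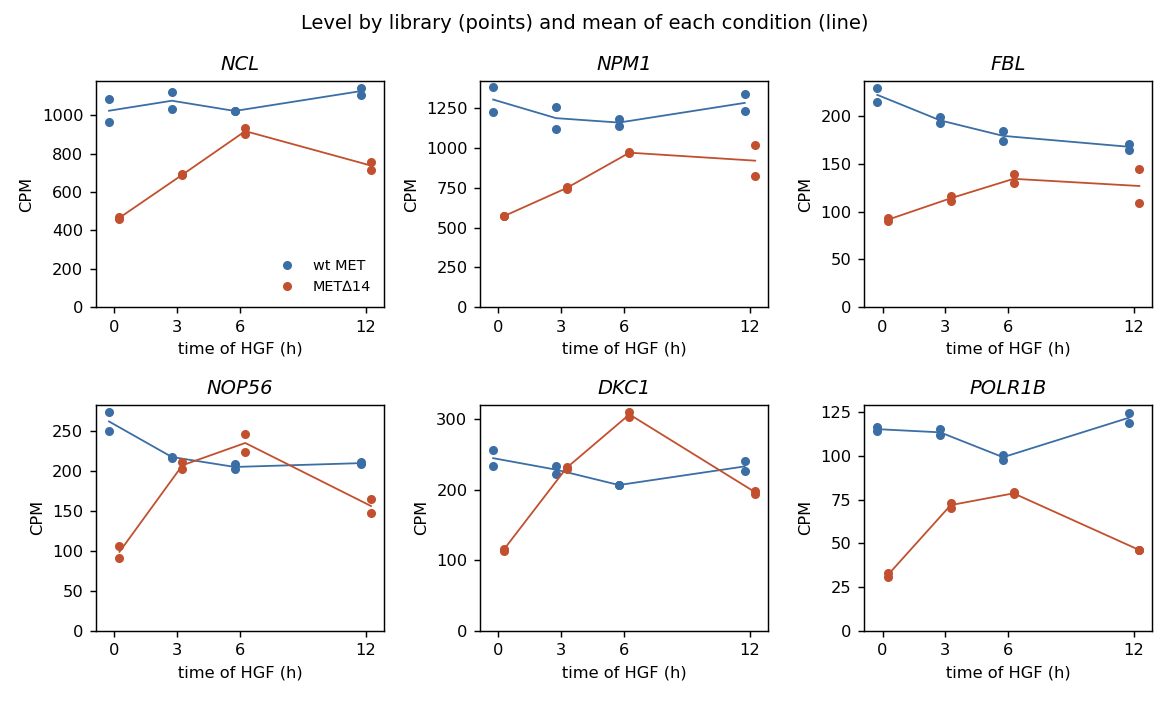
Level in CPM (y axis, from 0) of NCL, NPM1, FBL, NOP56, DKC1 and POLR1B by time of HGF in hours (x axis), with a point for each library and a line through the means of 2 libraries. In MET∆14 cells each gene stands higher at 3, 6 and 12 h than at 0 h, and DKC1 at 6 h (303 and 311 CPM) stands above both wt MET libraries (207 CPM).

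DDX21, a helicase that links RNA polymerase I transcription with processing, had the largest response of this set. With MET∆14 it was at 139 and 156 CPM at 0 h, 463 and 429.9 CPM at 3 h, 523 and 527 CPM at 6 h, and 304 and 317 CPM at 12 h. At 6 h its log2 fold change was 1.83 ± 0.09 (adjusted p = 3.23e-09). The wt MET libraries had 916 and 989 CPM at 0 h, 1049 and 1164 CPM at 3 h, 1165 and 1137 CPM at 6 h, and 1280.0 and 1259 CPM at 12 h. It rose there too, by 0.41 ± 0.09 at 12 h (adjusted p = 0.00234), and every MET∆14 library stayed below every wt MET library. NOLC1, a chaperone of snoRNPs, rose with MET∆14 (mean 1.14 ± 0.07, adjusted p = 9.19e-09), and with wt MET its mean of 0.16 ± 0.06 did not pass the test (adjusted p = 0.059). NPM3, a small relative of nucleophosmin, was at 20.6 and 21.4 CPM with MET∆14 at 0 h, 22.5 and 23.1 CPM at 3 h, 24.0 and 26.8 CPM at 6 h, and 19.8 and 28.3 CPM at 12 h. Its wt MET values were 25.4 and 30.0 CPM, 25.8 and 25.1 CPM, 24.8 and 22.3 CPM, and 21.8 and 24.4 CPM in the same order of times. NPM3 passed the test at no time in either line, and its mean response with MET∆14 was 0.19 ± 0.12 (adjusted p = 0.207), or 0.28 without replicate 1 of MET∆14 at 12 h (adjusted p = 0.0123).

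All 11 small subunit factors rose at all 3 times with MET∆14, with a median log2 fold change of 0.89 at 3 h, 1.18 at 6 h and 0.72 at 12 h. Of all genes, 15.5%, 21.6% and 18.3% were called higher at these times, and calls at all 3 times were not counted over all genes. RRP9, a protein of the U3 snoRNP that directs early cuts of the precursor, was at 15.5 and 15.7 CPM with MET∆14 at 0 h, 38.2 and 42.8 CPM at 3 h, 60.6 and 60.8 CPM at 6 h, and 29.8 and 40.1 CPM at 12 h. The wt MET libraries had 32.8 and 38.9 CPM at 0 h, 36.0 and 34.1 CPM at 3 h, 36.3 and 35.5 CPM at 6 h, and 31.3 and 34.1 CPM at 12 h. RRP9 thus went from below both wt MET libraries at 0 h to above both at 6 h. Its log2 fold change of 1.96 ± 0.13 at 6 h (adjusted p = 2.73e-08) was the highest of the 40 genes at any time. RRP12, which acts in export of the small subunit precursor, was at 40.3 and 44.8 CPM with MET∆14 at 0 h, 117 and 123 CPM at 3 h, 151 and 159 CPM at 6 h, and 98.9 and 92.5 CPM at 12 h. The wt MET libraries had 279.8 and 311 CPM at 0 h, 421 and 396 CPM at 3 h, 385 and 370.5 CPM at 6 h, and 302 and 305 CPM at 12 h. RRP12 rose in both lines, by 1.87 ± 0.09 at 6 h with MET∆14 (adjusted p = 1.73e-09) and by 0.47 ± 0.08 at 3 h with wt MET (adjusted p = 0.00107). At 12 h with wt MET it was back near its start (0.04 ± 0.08, adjusted p = 0.761).

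UTP20, a large scaffold of the early small subunit precursor, had the largest mean response with wt MET. It was at 72.0 and 69.6 CPM in wt MET cells at 0 h, 113 and 114 CPM at 3 h, 119 and 114 CPM at 6 h, and 110.4 and 113 CPM at 12 h. The whole step was present at 3 h (0.68 ± 0.11, adjusted p = 0.000797) and held. In MET∆14 cells it was at 33.1 and 34.5 CPM at 0 h, 63.7 and 61.5 CPM at 3 h, 91.5 and 101 CPM at 6 h, and 82.0 and 58.5 CPM at 12 h. DDX10, an RNA helicase, was at 176 and 192 CPM with wt MET at 0 h, 215 and 221 CPM at 3 h, 244 and 253 CPM at 6 h, and 234 and 252 CPM at 12 h. With MET∆14 it was at 26.5 and 23.4 CPM, 44.5 and 42.4 CPM, 54.0 and 58.5 CPM, and 36.3 CPM in both 12 h libraries. UTP20 and DDX10 were the genes called higher at all 3 times in both lines, DDX10 at 3 h with wt MET by a small margin (adjusted p = 0.0488). The other small subunit factors with a called mean response with wt MET were RRP12 and WDR43 (0.30 ± 0.07, adjusted p = 0.00538).

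Of the 14 large subunit factors, 13 rose with MET∆14 at 3 h, all but LAS1L (15.5% of all genes), and 14 at 6 h (21.6%) and at 12 h (18.3%). BOP1, PES1 and WDR12 form 1 complex that is needed to process the large subunit precursor, and they went apart between the lines. BOP1 was at 31.5 and 36.7 CPM with MET∆14 at 0 h, 45.4 and 50.7 CPM at 3 h, 78.1 and 84.4 CPM at 6 h, and 69.4 and 80.3 CPM at 12 h. With wt MET it was at 49.2 and 45.9 CPM at 0 h, 44.6 and 37.5 CPM at 3 h, 31.0 and 28.6 CPM at 6 h, and 24.9 and 25.0 CPM at 12 h. It therefore rose by 1.13 ± 0.11 on the log2 scale with MET∆14 at 12 h (adjusted p = 2.58e-06) and fell by 0.93 with wt MET (SE 0.11, adjusted p = 3.46e-05). Its difference of the mean response, 1.56 ± 0.13 (adjusted p = 8.67e-07), was the largest of the 40 genes. WDR12 had a mean response of 0.35 ± 0.06 with MET∆14 (adjusted p = 0.000363) and -0.21 ± 0.06 with wt MET (adjusted p = 0.0125), and PES1 of 0.68 ± 0.08 (adjusted p = 4.75e-06) and -0.15 ± 0.07, the latter not called (adjusted p = 0.111).

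URB2, a nucleolar factor of large subunit assembly, was among the 4 genes with their highest fold change at 3 h. With MET∆14 it was at 22.6 and 26.0 CPM at 0 h, 83.1 and 78.2 CPM at 3 h, 65.6 and 69.1 CPM at 6 h, and 47.0 and 45.1 CPM at 12 h. At 3 h its log2 fold change was 1.73 ± 0.09 (adjusted p = 5.92e-09). With wt MET it was at 52.1 and 53.9 CPM at 0 h, 72.5 and 69.1 CPM at 3 h, 56.0 and 54.4 CPM at 6 h, and 77.2 and 71.7 CPM at 12 h. The wt MET values rose at 3 h (0.42 ± 0.09, adjusted p = 0.00324) and at 12 h (0.49 ± 0.08, adjusted p = 0.000457) and lay close to 0 h in between (0.06 ± 0.09, adjusted p = 0.639). DDX18, a helicase, was at 96.7 and 101 CPM with MET∆14 at 0 h, 145 and 142 CPM at 3 h, 174 and 175 CPM at 6 h, and 148 and 155 CPM at 12 h. Its wt MET values were 399 and 441 CPM, 456 and 479.5 CPM, 529.8 and 502 CPM, and 539 and 534 CPM. DDX18 rose in both lines, with mean responses of 0.66 ± 0.07 (adjusted p = 1.68e-06) and 0.27 ± 0.06 (adjusted p = 0.00411).

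In wt MET cells the group had no common direction. At 3 h, 7 genes were called higher (10.3% of all genes) and NOP56 lower (7.16%), at 6 h 5 higher (16.4%) and 9 lower (17.8%), and at 12 h 7 higher (16.9%) and 5 lower (18.2%). The medians of the 40 log2 fold changes were 0.04, -0.03 and 0.07, beside -0.04, -0.05 and 0.00 for all genes. The F test over the 3 times called 19 of the 40, where 40.3% of all genes were called. Over the mean of the 3 times, 8 genes were higher (17.5% of all genes), namely DDX21, RRP12, WDR43, UTP20, DDX10, NOP2, DDX18 and URB2, and 6 were lower (20.1%), namely NOP56, FBL, NHP2, BOP1, WDR12 and LAS1L. When untreated wt MET replicate 1 was left out, the mean response was called higher for 3 and lower for 3, and NOP56, NHP2, RRP12, DDX21 and DDX18 were among those that lost their call. NHP2 lost it in all 8 fits that left out a wt MET library. The changes were small, and only UTP20 (at each time) and BOP1 (at 6 and 12 h) among those called had changed at least 1.5-fold. Between 3 and 6 h none rose (1.44% of all genes; 1 at an unadjusted p under 0.05 by edgeR and 0 by DESeq2) and BOP1 and URB2, that is 2, fell (1.66%), and between 6 and 12 h 5 rose (5.59%) and 1, RRP12, fell (5.98%). These counts rested on single libraries. Leaving out 1 library at a time gave 3 to 11 called higher at 3 h, 3 to 9 at 6 h and 7 to 11 at 12 h, with 0 to 5, 2 to 13 and 2 to 6 called lower. NOP56, the gene called lower at 3 h, lost that call in 14 of 16 such fits and without the filter on low counts. The low end of 7 called higher at 12 h is the same as the count with all libraries. The other low ends came without replicate 1 of wt MET at 0 h, replicate 1 at 6 h or replicate 2 at 12 h, and the high ends without either library of MET∆14 at 12 h. Of the untreated wt MET libraries, leaving out replicate 1 gave a median of -0.14 at 6 h and leaving out replicate 2 gave 0.09.

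The response itself was compared between the lines as the difference of the log2 fold changes, MET∆14 minus wt MET. At 3 h, 33 of the 40 genes had a larger response with MET∆14 (8.93% of all genes tested), at 6 h 38 (16.4%) and at 12 h 28 (13%). None had a smaller one at any time, where 8.47%, 13.8% and 11% of all genes did. At an unadjusted p under 0.05 by edgeR 0 of the 40 had a smaller one, and 0 by DESeq2. The difference of the mean response was called higher for 38 genes (15.5% of all genes) and lower for none (13.5%). Over the 40 genes it had a median of 0.76 and a range of 0.36 to 1.56, where the median of all genes was 0.02. The F test over the 3 differences called 37 of 40 (37.6% of all genes). NOP10 (0.36 ± 0.20, adjusted p = 0.197) and NPM3 (0.40 ± 0.17, adjusted p = 0.0866) were the genes for which the difference did not pass the test, and without replicate 1 of MET∆14 at 12 h both passed it (0.48 each). The differences of NHP2 and, less often, UTP20 and DDX18 lost their call when single libraries were left out. After BOP1, the largest differences were those of RRP9 (1.55 ± 0.15, adjusted p = 3.29e-06) and NOP16 (1.51 ± 0.12, adjusted p = 7.55e-07). In 5 genes, NOP56, FBL, BOP1, WDR12 and LAS1L, the mean response was called higher with MET∆14 and lower with wt MET, and in 8 it was called higher in both. Joint calls were not counted over all genes. With wt MET alone, 15% of the 40 were called lower (20.1% of all genes) and 20% higher (17.5%). No gene was called lower with MET∆14. In an additive model of line and time, which takes the study's formula into edgeR in place of DESeq2 and holds the 2 lines analysed here, where a response present in 1 line is averaged with the other, 13 of the 40 genes were called for time with a positive mean (13.4% of all genes). This count was 30 when no filter on low counts was applied, and it also moved when single untreated libraries were left out (range in the closing section). How many of all genes were called in those fits was not counted.

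Before HGF the same genes stood lower in MET∆14 cells. At 0 h all 40 were called lower than in wt MET cells, where 39.6% of all genes tested were called lower. Both MET∆14 libraries lay below both wt MET libraries for each of the 40, which was not counted over all genes. The median log2 difference was -1.16, and values ran from -2.89 for DDX10 to -0.30 for RRP1B. At 3 h 25 genes were lower (39.6% of all genes) and 3 higher (40.3%), at 6 h 18 lower (40%) and 9 higher (41.6%), and at 12 h 30 lower (40.1%) and 2 higher (41.5%), or 5 without replicate 1 of MET∆14 at 12 h. The median difference was -0.40 at 3 h, -0.11 at 6 h and -0.58 at 12 h. At each of these times the share of the 40 called higher was below that of all genes. The 9 genes higher in MET∆14 cells at 6 h were POLR1C, DKC1, RRP9, TSR1, RRP1B, WDR74, BOP1, NOP16 and URB2, and BOP1 (1.58 ± 0.11, adjusted p = 3.27e-09) and RRP1B (0.34 ± 0.08, adjusted p = 0.00172) were the 2 at 12 h. DDX10, RRP12, WDR43, DDX21, DDX18 and NOLC1, which started more than 2 log2 units below wt MET, stayed lower at every time. The comparisons at 3, 6 and 12 h were added after the data were seen, and the responses above share the 0 h libraries with the comparison at 0 h.

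**Figure D4:**
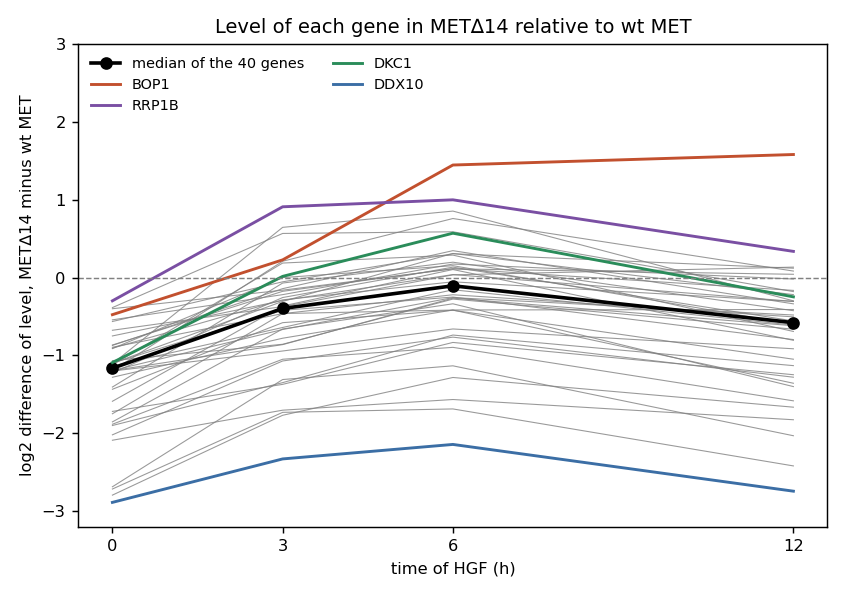
Log2 difference of level, MET∆14 minus wt MET (y axis), by time of HGF in hours (x axis), for each of the 40 genes (grey lines), their median (black) and 4 genes in colour. The median goes from -1.16 at 0 h to -0.11 at 6 h and -0.58 at 12 h, BOP1 ends at 1.58 and DDX10 stays between -2.89 and -2.14.

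MYC, whose product binds the E-box, was followed beside the group. In MET∆14 cells MYC was at 165 and 184 CPM at 0 h, 217 and 194 CPM at 3 h, 164 and 169 CPM at 6 h, and 71.2 and 74.8 CPM at 12 h. Both 3 h libraries lay above both at 0 h, with a log2 fold change of 0.23 ± 0.11 (unadjusted p = 0.0437, adjusted p = 0.109). Times between 0 and 3 h were not sampled. The log2 fold change of MYC was -0.07 ± 0.11 at 6 h (adjusted p = 0.647), and at 12 h MYC fell by 1.26 (SE 0.11, adjusted p = 8.62e-07). From 6 to 12 h, where 27 of the 40 genes fell, MYC fell by 1.19 (SE 0.11, adjusted p = 9.63e-06), whereas no rise of MYC from 0 h passed the test at 3 or 6 h, where 36 and 38 of them rose. In wt MET cells MYC was at 349 and 439 CPM at 0 h, 368 and 341 CPM at 3 h, 592 and 619 CPM at 6 h, and 622 and 599 CPM at 12 h. It rose by 0.62 ± 0.10 at 6 h (adjusted p = 0.000345) and 0.63 ± 0.10 at 12 h (adjusted p = 0.000312). The line in which MYC RNA rose was thus the one in which the 40 genes had a median change near 0. Before HGF, MYC was lower in MET∆14 than in wt MET cells (-1.17 ± 0.11, adjusted p = 5.34e-08), where the median of the 40 genes was -1.16. At 3, 6 and 12 h the MYC difference was -0.79, -1.86 and -3.06, beside medians of -0.40, -0.11 and -0.58. The part of MYC in these results was not tested.

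Other ribosome biogenesis genes were counted from 4 lists of 117 tested genes that hold none of the 40. In the mean response with MET∆14, 95 were called higher (21.3% of all genes) and 1 lower (25.3%), with a median of 0.57. With wt MET 50 were higher (17.5%) and 14 lower (20.1%), with a median of 0.14. The difference between the lines was called higher for 70 (15.5% of all genes) and lower for 3 (13.5%), with a median of 0.45. At 0 h 86 were lower in MET∆14 cells (39.6% of all genes) and 12 higher (40.6%). By list, the mean response with MET∆14 was higher for 8 of 13 genes of the RNA polymerase I machinery, 11 of 18 of snoRNP assembly and RNA modification, 36 of 42 small subunit and 40 of 44 large subunit factors. The genes furthest apart between the lines in each list were POLR1E (1.07 ± 0.12, adjusted p = 1.45e-05) and TCOF1 (0.99 ± 0.12, adjusted p = 1.86e-05), both in RNA polymerase I transcription. In the snoRNP list they were RUVBL1 (1.07 ± 0.11, adjusted p = 5.38e-06) and ZNHIT6 (0.88 ± 0.10, adjusted p = 1.45e-05), which assemble snoRNPs. They were WDR3 (1.30 ± 0.09, adjusted p = 2.67e-07) among small subunit factors and RRS1 (1.72 ± 0.11, adjusted p = 9.95e-08) and RRP1 (1.15 ± 0.10, adjusted p = 1.06e-06) among large subunit factors. PWP2 had a difference of 1.46 ± 0.54 that did not pass the test (adjusted p = 0.0561). The opposite was found for TTF1, the RNA polymerase I termination factor (-0.71 ± 0.13, adjusted p = 0.00081), NVL (-0.50 ± 0.12, adjusted p = 0.00492) and FCF1 (-0.33 ± 0.09, adjusted p = 0.0144). Each of these rose with wt MET, by 0.83, 0.53 and 0.35. NOL12, the lowest of the large subunit list, had -0.24 ± 0.15 (adjusted p = 0.26).

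The genes of the ribosome's own proteins were counted in the same way. Of 81 tested cytosolic ribosomal protein genes, the mean response with MET∆14 was called higher for 4 (21.3% of all genes) and lower for 1 (25.3%), with a median of 0.12. With wt MET it was called lower for 5 (20.1%), with a median of -0.07. At 6 h with MET∆14, 9 were called higher (21.6% of all genes), with a median of 0.22. The difference between the lines was called larger with MET∆14 for 7 (15.5% of all genes) and smaller for none (13.5%). Among the 7 were RPL3 (0.56 ± 0.14, adjusted p = 0.00755) and RPL10A (0.54 ± 0.16, adjusted p = 0.0205), in both of which the wt MET level fell (-0.42 and -0.35). The lowest difference was that of RPS27L (-0.15 ± 0.14, adjusted p = 0.436). At 0 h 71 of the 81 were lower in MET∆14 cells (39.6% of all genes), with a median of -1.05. The ribosomal protein genes thus shared the lower level at 0 h with the 40 genes, and the shares called for a response were below those of all genes. Their medians with MET∆14 lay above those of all genes for the mean response (0.12 beside -0.05) and at 6 h (0.22 beside -0.04), but not at 12 h (-0.03 beside -0.02). The difference of the mean response had a median of 0.17, beside 0.02 for all genes.

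Some counts may include reads of other genes, since the sources used here do not say whether counting used strand. In GENCODE v44 (hg38), 3 genes share over 10% of their exon bases with another gene of the same strand, namely NOP2 (54.4%), PPAN (49.2%, with the PPAN-P2RY11 readthrough) and WDR74 (10.1%), and 8 with a gene of the opposite strand, namely POLR1C, NHP2 (28.1%, with RMND5B), NOP14, HEATR1, TSR1, WDR74, NOP16 and NIP7. Values of these 10 genes are uncertain to that extent. Of the genes named with library values, BOP1 lies at chr8:144262045-144291438 on the minus strand and RRP9 at chr3:51933429-51941904 on the minus strand, and neither shares over 10% of its exons with another gene.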

How the data were processed

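Polyadenylated RNA of 16 libraries (2 lines, 4 times of HGF, 2 replicates) was measured. The authors deposited a table of whole-number counts per gene on hg38. The submitters' processing notes name STAR 2.5.0 and RSEM 1.3.2 without their roles, so the counts may be rounded RSEM estimates, and the annotation and the use of strand are not given in the sources used here. Columns were matched to samples by name (columns begin H549 where titles have A549), which left 0 columns without a sample. Total counts were 10158590 to 23909304 per library.

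Counts were filtered with filterByExpr (minimum count 10, minimum total 15), normalised by TMM and fitted over all 16 libraries with 1 coefficient per line and time, using edgeR 4.0.16 in R 4.3.3 with limma 3.58.1. The quasi-likelihood F test was applied with Benjamini-Hochberg adjustment over all 15067 genes tested (threshold 0.05, two-sided). The SE is the absolute log2 fold change divided by the square root of F. CPM values use TMM library sizes. The log2 CPM values of the correlations use a prior count of 2, and fitted fold changes the default of edgeR. The mean response is the mean of the 3, 6 and 12 h log2 fold changes, and its difference between the lines was tested in the same fit. The study's additive formula of line and time, which it fitted in DESeq2, was fitted here in edgeR to these 2 lines and gave the shared time effect. The 40 genes and all lists were chosen with earlier results of these data known. Library values are given for NCL, NPM1, FBL, NOP56, DKC1 and POLR1B, for the 3 genes with the highest and the 2 with the lowest mean response in each line, and for the 2 with the largest and the 2 with the smallest difference, and MYC, the 2 highest and the lowest gene of each other list were named. Comparisons between the lines at 3, 6 and 12 h were added after the data were seen. Scripts were tested on simulated data. Alternatives were DESeq2 1.42.0, its size factors in edgeR, no filter, a replicate block, each line fitted alone, a 1.5-fold minimum and each library left out in turn. Exon overlaps and positions are from GENCODE v44, promoters from RefSeq (GRCh38.p14). The replicate numbers were checked for pairing and did not pair the libraries.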

Additional observations from a re-analysis of the deposited data

Results flagged for a closer look

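The mean response to HGF differed between the lines, by a test of the difference itself, for 38 of the 40 genes, each time with the larger value in MET∆14 cells. Of all genes tested, 15.5% were called for a larger and 13.5% for a smaller response with MET∆14. Among the genes described with library values, the difference of the mean log2 fold change, MET∆14 minus wt MET, was 0.67 for NCL, 0.72 for NPM1, 0.75 for FBL, 1.31 for NOP56, 1.20 for DKC1 and 1.05 for POLR1B. It was 0.47 for UTP20, 0.48 for DDX10, 1.05 for URB2, 1.56 for BOP1 and 0.52 for NHP2. It was 1.22 for RRP12, 1.20 for DDX21, 1.55 for RRP9 and 0.39 for DDX18.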

How the results depend on the processing

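The counts called higher with MET∆14 stayed within 1.5 times of the reported ones when each library was left out in turn (31 to 37 at 3 h, 37 to 40 at 6 h, 34 to 39 at 12 h, 36 to 40 for the mean), as did the difference of the mean response (35 to 40) and the genes lower in MET∆14 cells at 0 h (37 to 40). With 2 libraries per group, the wt MET and step counts moved more, and the cause was not tested. In the alternative fits the 40 genes alone were counted, so no share of all genes stands beside these counts. Left-out libraries gave, with wt MET, 3 to 11 higher and 0 to 5 lower at 3 h, 3 to 9 and 2 to 13 at 6 h, 7 to 11 and 2 to 6 at 12 h, 3 to 11 and 3 to 11 for the mean, 0 to 4 lower from 3 to 6 h, 0 to 10 higher and 0 to 3 lower from 6 to 12 h, and 11 to 26 at any time. With MET∆14 they gave 0 to 1 lower at 12 h, 3 to 24 higher and 0 to 2 lower from 3 to 6 h, and 16 to 33 lower from 6 to 12 h. Genes higher in MET∆14 than in wt MET cells numbered 3 to 6 at 3 h and 2 to 5 at 12 h, and the shared time effect called 6 to 23 higher and 0 to 1 lower.

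A 1.5-fold minimum left 1 higher and 0 lower with wt MET at 3 h, 1 and 1 at 6 h, 1 and 1 at 12 h, and 24 higher with MET∆14 at 12 h. Without the filter, 0 were lower with wt MET at 3 h, 3 higher from 6 to 12 h, and 30 were called for the shared time effect. Each line fitted alone gave, with wt MET, 3 lower at 3 h, 9 higher at 6 h, 12 higher at 12 h and 2 lower from 6 to 12 h, and with MET∆14 5 higher from 3 to 6 h. DESeq2 called 1 lower with MET∆14 from 3 to 6 h. The labels give replicate numbers only, and deviations of same-numbered libraries correlated between -0.159 and 0.111. A replicate block gave 0 lower with wt MET at 3 h and 1 lower from 3 to 6 h, and moved no other count by over 1.5 times.

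The mean response with wt MET changed sign for 3 genes that did not pass the test. When untreated wt MET replicate 1 or 2 was left out, it lay at -0.0108 and 0.17 for NCL, -0.0283 and 0.27 for NOP10, and -0.17 and 0.0919 for RRP9. Of the other values of named genes, 1011 kept direction and side of the threshold, 33 lost and 7 gained their call.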
